A study of Rattus norvegicus with 27 samples.

Results

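The comparison described here set primary rat lung fibroblasts that had spent 14 days on soft polydimethylsiloxane (PDMS) against fibroblasts that had spent 14 days on plastic. Its members are, by their labels, the 4 libraries of PDMS day 14 and the 4 of Plastic day 14, 8 of the 27 RNA-seq libraries of the series. The cells of both groups came from lungs of Sprague-Dawley rats, an outbred stock, and were bead-sorted for CD90, the surface antigen Thy-1. Both surfaces carried rat tail collagen I, applied at 38 µg/ml, and both groups were kept in MucilAir medium. The PDMS, a silicone elastomer, had a stated stiffness of 3 to 5 kPa, and no stiffness is stated for the plastic. The labels of all 8 libraries carry WT (wild type), MonoCulture and Non, the last without explanation. They name no agent and no gene change in either group. The labels name neither the animal nor the isolation nor the culture behind a library, so a p-value here weighs a difference against scatter between libraries, which can be partly technical. In the main edgeR tests that scatter was pooled within the groups of all 27 libraries and not taken from the 8 alone.

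Fibroblasts grip collagen through integrins, which connect the matrix to actin bundles inside the cell. On a stiff surface these bundles pull harder, more of the transcription co-factors YAP and TAZ enters the nucleus, and lung fibroblasts take on features of myofibroblasts, the contractile cells that lay down collagen in fibrosis. Culture plastic is far stiffer than lung tissue, and soft silicone or gel is used to keep fibroblasts closer to the mechanical setting of the lung. The design asks how far the transcriptomes of cells on the 2 materials differ after the longest culture time. The files give genes as Ensembl rat IDs without names, and 0 of the 32753 IDs matched the RefSeq gene table at hand. Contractile, matrix and YAP/TAZ target genes, and markers of fibroblasts or other lung cells, were therefore not looked up, and the labelled cell type was not checked against its markers. At most 2 IDs in each direction are named, with no function given.

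The PDMS day 14 libraries held 24.7, 24.2, 20.6 and 24.4 M counts (M, mega; replicates 1 to 4), with a mean of 23.5 ± 1.94 M (SD, n = 4). The Plastic day 14 libraries held 21.3, 18.2, 20.5 and 21.2 M counts, with a mean of 20.3 ± 1.42 M (n = 4). Of the 32753 IDs, 13726 had no read in any of the 8 libraries, and 14258 were kept for testing by a minimum count. At least 1 CPM (count per mega of scaled reads) was reached in all 8 libraries by 11062 of the tested genes.

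The 8 libraries did not fall into a PDMS set and a plastic set. Libraries were set against each other by the root mean square difference of log2 CPM over the 14258 genes. Across substrates this difference was 0.59 to 1.14, with a median of 0.90 over 16 pairs. Within PDMS it was 0.72 to 0.98, with a median of 0.82 over 6 pairs, and within plastic it was 0.38 to 1.12, with a median of 0.86 over 6 pairs. A pair of one substrate thus differed about as much as a pair of unlike substrates.

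Plastic replicate 4 stood apart from its own group and close to a PDMS library. PDMS replicate 3 and Plastic replicate 4 differed by 0.59 from each other, the smallest of the 16 differences across substrates. Plastic replicate 4 differed by 1.10 to 1.12 from the other plastic libraries, which differed by 0.38 to 0.63 among themselves. PDMS replicate 3 differed by 0.82 to 0.98 from the other PDMS libraries, no further than PDMS replicate 4, which differed by 0.74 to 0.98. PDMS replicate 3 and Plastic replicate 4 were each closer to the other than to any library of their own group. Their deviations from their group means correlated across genes with r = 0.71, where genes are not independent replicates. Plastic replicates 2 and 3 formed the closest of all day 14 pairs, at 0.38. Moving 3.60% of the reads between genes would turn one into the other, against 7.64% to 18.2% in the other plastic pairs. Their counts still differed by more than read sampling (chi-square per degree of freedom 7.71, where sampling alone gives about 1), so they were kept as 2 libraries. Neither pair was identified in the labels as sharing an animal, a culture or a run. The main counts and sizes are given with and without PDMS replicate 3 and Plastic replicate 4.

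**Figure D1:**
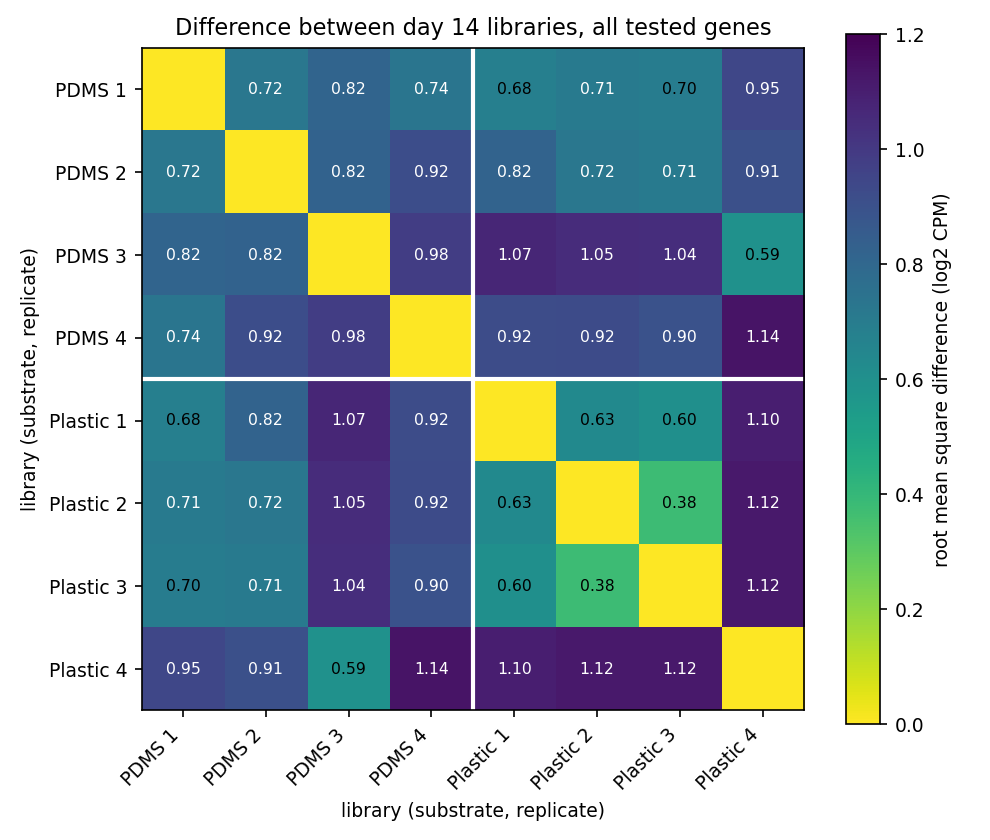
Root mean square difference of log2 CPM over 14258 genes between each pair of the 8 day 14 libraries, with PDMS replicates 1 to 4 before Plastic replicates 1 to 4 on both axes and white lines between the substrates. PDMS 3 and Plastic 4 differ by 0.59, less than either differs from its own group, and Plastic 2 and 3 are the closest pair at 0.38.

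Without PDMS replicate 3 and Plastic replicate 4, the median difference was 0.72 across substrates (9 pairs), 0.74 within PDMS (3 pairs) and 0.60 within plastic (3 pairs). The plastic libraries then stood closer to each other than the PDMS libraries did. The median standard deviation of log2 CPM per gene was 0.26 on PDMS and 0.29 on plastic. It was 0.24 on PDMS without replicate 3 and 0.16 on plastic without replicate 4.

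No single gene was called different between PDMS and plastic at day 14. Of 14258 genes, 0 passed an adjusted p of 0.05 (0%, edgeR quasi-likelihood test with Benjamini-Hochberg adjustment, n = 4 and 4), and the smallest adjusted p was 0.0594. This test took its spread from all 27 libraries. In a fit of the 8 day 14 libraries alone the smallest edgeR adjusted p was 0.243. In the main fit 2 of the 14258 genes had an adjusted p under 0.1, and 126 had one under 0.25, of which 57 were higher and 69 lower on PDMS. At an unadjusted p under 0.05 there were 1266 genes (8.88%), where 713 are due by chance if the libraries are independent. DESeq2 called 113 genes and limma-voom 2 on the same counts. The call of 0 turned on single libraries. Without Plastic replicate 4, 88 genes were called, 44 higher and 44 lower on PDMS, with median log2 fold changes of 0.57 and -2.17 and edgeR adjusted p values down to 0.00897, and 2279 had an unadjusted p under 0.05. Without PDMS replicate 2, 6 genes were called, all 6 lower on PDMS. Without PDMS replicate 3 and Plastic replicate 4 together, 0 were called again and 1416 had an unadjusted p under 0.05, with a smallest adjusted p of 0.0503. DESeq2 and the fit without Plastic replicate 4 shared 54 genes, which are 47.8% of the 113 and 61.4% of the 88.

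**Figure D2:**
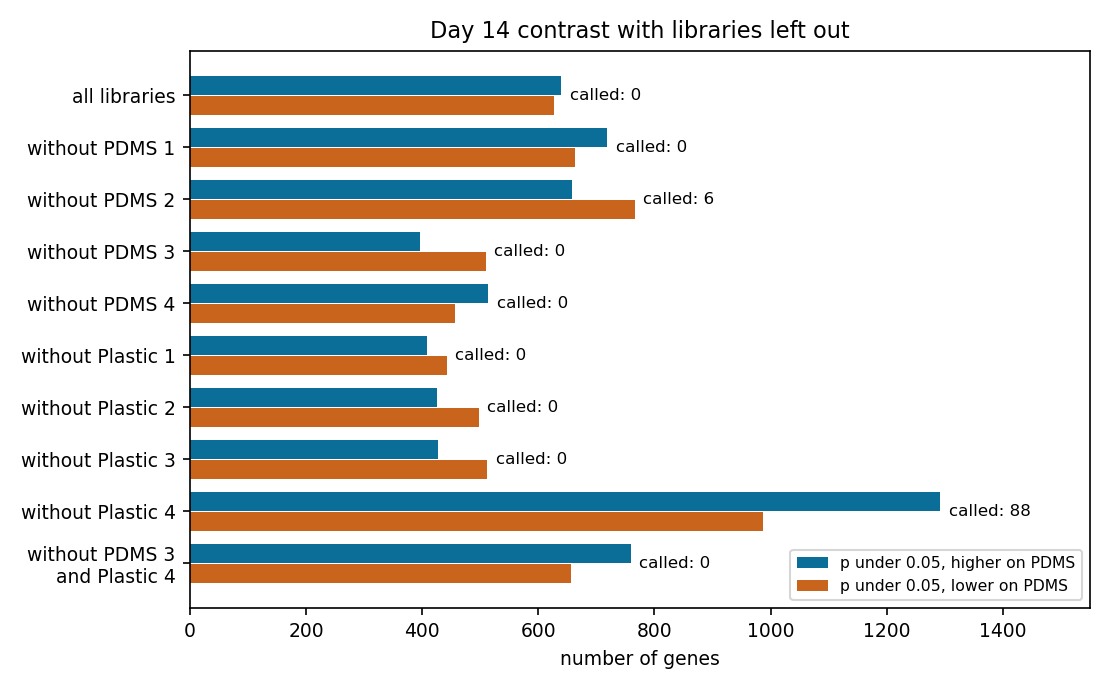
Number of genes with an unadjusted edgeR p under 0.05 between PDMS and plastic at day 14, higher on PDMS (blue) and lower on PDMS (orange), for all libraries and with libraries left out, with the number called at an adjusted p under 0.05 beside each pair of bars. The sum of both bars lies between 851 without Plastic 1 and 2279 without Plastic 4, and 88 genes are called without Plastic 4.

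The genes at an unadjusted p under 0.05 were split evenly by direction and unevenly by size. On PDMS 639 were higher (4.48% of tested genes) and 627 lower (4.40%). The 639 had a median log2 fold change of 0.35, with quartiles of 0.28 and 0.49, and 63 of them (9.86%) exceeded 2-fold. The 627 had a median of -1.13, with quartiles of -1.85 and -0.55, and 347 of them (55.3%) exceeded 2-fold. Over all tested genes the median was 0.00. These sets were picked by the contrast they describe, so their sizes are a description and carry no test.

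The even split depended on how libraries were scaled, while the difference in size did not. The TMM scaling factors were 0.974 ± 0.013 for the PDMS libraries and 0.906 ± 0.020 for the plastic libraries (SD, n = 4 each). With library size in place of TMM the median of all genes moved to a log2 fold change of 0.11, and 1569 genes were higher and 391 lower on PDMS at an unadjusted p under 0.05. That made 80.1% of these genes higher on PDMS, in place of 50.5%. The medians were then 0.38 and -1.45. Without PDMS replicate 3 and Plastic replicate 4 they were 0.44 over 759 genes and -1.07 over 657 genes. Of all tested genes regardless of p, 224 (1.57%) were more than 2-fold higher and 803 (5.63%) more than 2-fold lower on PDMS. The numbers were 272 and 690 with library size, and 462 and 917 without those libraries.

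**Figure D3:**
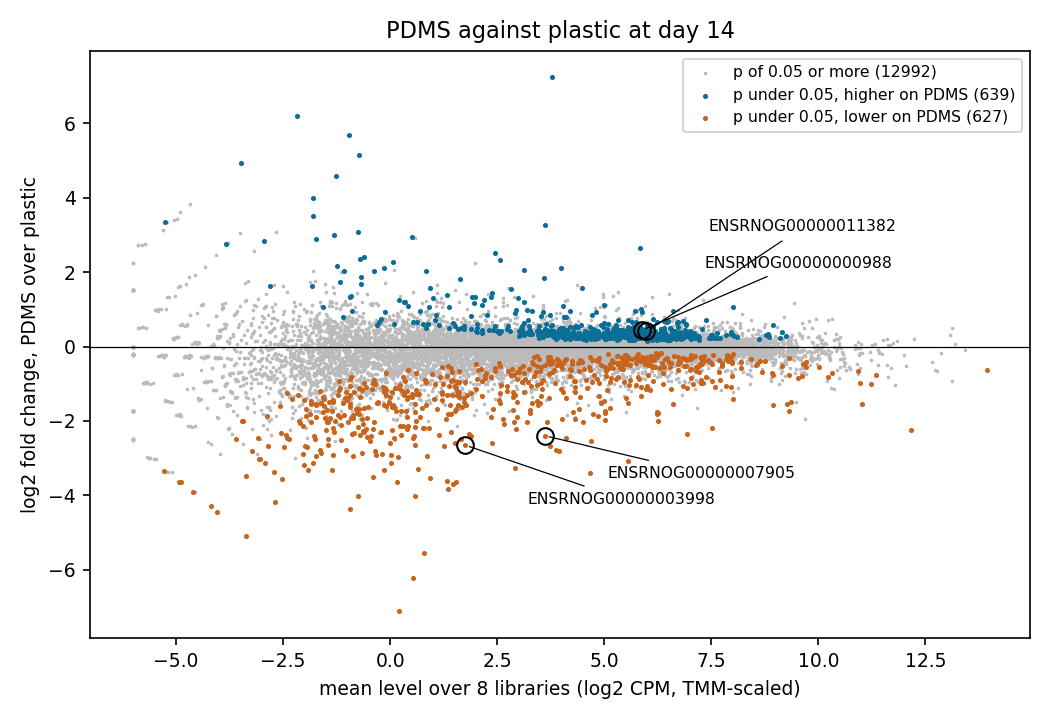
Fitted log2 fold change of PDMS over plastic at day 14 against the mean level over the 8 libraries in log2 CPM, 1 point per tested gene. The 639 genes higher on PDMS at an unadjusted p under 0.05 (blue) have a median of 0.35 and reach 7.24 at the most, the 627 lower genes (orange) have a median of -1.13 and reach -7.12, and the 4 named IDs are circled.

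By the median, though not by their sum given below, the lower genes held fewer reads than the higher genes. Their median mean level was 7.69 CPM, against 32.8 CPM for the higher genes and 20.7 CPM for all tested genes. CPM is not divided by transcript length, so these levels rank genes by reads and not by transcripts. The standard error (SE) of the log2 fold change was larger at low levels, with a median of 0.42 in the lower and 0.13 in the higher genes, and a gene with a larger SE needs a larger fold to reach the same p. The part of the SE in the difference of sizes was not tested.

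In the lowest class of mean level, under 1 CPM, 33 genes were higher and 159 lower on PDMS at an unadjusted p under 0.05 (of 2157 tested). From 1 to 10 CPM the numbers were 88 higher and 174 lower (of 3093). From 10 to 100 CPM they were 444 higher and 199 lower (of 6798). At 100 CPM or more they were 74 higher and 95 lower (of 2210). Lower genes thus led in the lowest class and higher genes in the class of 10 to 100 CPM, and this order also held with library size (44 against 134, and 1104 against 87) and without PDMS replicate 3 and Plastic replicate 4 (37 against 148, and 524 against 219). The lead of the lower genes in the classes of 1 to 10 and of 100 CPM or more turned round with library size, where 191 were higher and 130 lower, and 230 were higher and 40 lower. Within each class the median size was larger among the lower genes except in the lowest, where it was 2.11 among the higher and -1.95 among the lower genes (1.67 and -2.12 without PDMS replicate 3 and Plastic replicate 4). From 10 to 100 CPM it was 0.33 against -0.55, and at 100 CPM or more 0.30 against -0.53.

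In TMM-scaled CPM, the 627 lower genes together took 47882 CPM on PDMS and 84145 CPM on plastic. The 639 higher genes took 36523 CPM on PDMS and 28559 CPM on plastic. With PDMS replicate 3 and Plastic replicate 4 left out, the 657 lower genes took 55251 CPM on PDMS and 95677 CPM on plastic, and the 759 higher genes 39359 CPM on PDMS and 28764 CPM on plastic. TMM-scaled totals are unequal, at 1.03e+06 CPM on PDMS and 1.10e+06 CPM on plastic over all tested genes and all libraries. With library size in place of TMM the totals are equal. The 391 lower genes then took 29764 CPM on PDMS and 53951 CPM on plastic, and the 1569 higher genes 111978 and 86490 CPM. The balance of the sums thus depended on the scaling. In bulk RNA a smaller share of cells expressing a gene and less RNA of it per cell cannot be told apart. Switches between reads and no reads were few. The 4 PDMS libraries held no read of 8 genes that had 10 or more reads on plastic (35 at most), and the 4 plastic libraries held no read of 7 genes that had 10 or more on PDMS (35 at most). A count of 0 in a group does not show absence at this depth. By a level of 1 CPM the numbers were less even. In 10 genes all 4 plastic libraries reached 1 CPM and all 4 PDMS libraries lay under it, and in 1 gene the reverse held. In 11062 genes all 8 libraries reached it.

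Groups were also compared by whether every library separated. In 841 genes (5.90%) no PDMS library overlapped a plastic library in log2 CPM, with 426 higher (2.99%) and 415 lower (2.91%) on PDMS. Of these, 24 higher and 164 lower genes also differed by more than 2-fold. With library size in place of TMM, 1324 higher and 215 lower genes did not overlap, 43 and 115 of them by more than 2-fold, so the even split was again lost with that scaling. When PDMS replicate 3 and Plastic replicate 4 were left out, 1903 higher and 1755 lower genes did not overlap, 180 and 517 of them by more than 2-fold, where groups of 3 libraries separate more readily than groups of 4. At day 7, 2609 genes (18.3%) did not overlap between 4 PDMS and 3 plastic libraries, and at day 4, 592 genes (4.15%) between 4 and 4. The shares of days 14 and 4 compare groups of equal size, and that of day 7 has a plastic library fewer. Without any difference between groups, and with independent libraries, 4 against 4 would separate with a chance of 0.0286 per gene. That chance is larger for 4 against 3 and for 3 against 3, so shares from unequal group sizes cannot be compared directly.

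The most clearly separated genes were named by a rule on smallest p among genes with groups that did not overlap and 5 CPM or more on average in the group where the gene is higher, which 276 lower and 383 higher genes met. The first pair is lower on PDMS. ENSRNOG00000007905 stood at 4.09, 7.78, 1.82 and 1.95 CPM in PDMS replicates 1 to 4, and at 24.1, 28.6, 20.2 and 9.95 CPM in plastic replicates 1 to 4. Plastic replicate 4, the library close to PDMS replicate 3, was the lowest plastic library and still above PDMS replicate 2, the highest on PDMS. The log2 fold change was -2.40 ± 0.41 (SE, 95% interval -3.24 to -1.56), a 5.28-fold lower level on PDMS, and it did not pass (edgeR adjusted p = 0.0594, n = 4 and 4).

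Over the days, ENSRNOG00000007905 was highest in the plastic libraries of day 14. On PDMS the mean was 2.62 CPM at day 2, 4.07 at day 4, 4.55 at day 7 and 3.91 ± 2.78 at day 14 (SD, n = 4). On plastic it was 5.92 CPM at day 4, 6.30 at day 7 and 20.7 ± 7.97 at day 14 (n = 4). On plastic it rose between days 4 and 14 by 1.80 ± 0.40 on the log2 scale (edgeR adjusted p = 0.00223), and on PDMS the log2 fold change was -0.06 (adjusted p = 0.927). The substrate difference was -0.47 at day 7 (edgeR adjusted p = 0.597) and -0.54 at day 4 (adjusted p = 0.815). Tests of the change in substrate difference gave -1.94 for day 14 minus day 7 (edgeR adjusted p = 0.712) and -1.86 for day 14 minus day 4 (adjusted p = 0.640), and neither passed. This gene and the other named IDs below were chosen on the day 14 libraries, so contrasts that use them are no separate evidence. Changes from day 4 to day 14 were also common. Of 14258 tested genes, 4641 were called on plastic and 4075 on PDMS (edgeR adjusted p under 0.05).

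ENSRNOG00000003998, a gene of few reads, stood at 1.27, 1.27, 0.61 and 0.55 CPM in PDMS replicates 1 to 4, from 31, 30, 12 and 13 counts. On plastic it stood at 5.12, 7.30, 6.92 and 4.09 CPM, from 100, 120, 131 and 76 counts. Each plastic library was more than 3-fold above the highest PDMS library, with replicate 4 again the lowest on plastic. The log2 fold change was -2.65 ± 0.55 (SE, 95% interval -3.79 to -1.52), or 6.29-fold lower on PDMS, and did not pass (edgeR adjusted p = 0.115). At day 7, in other libraries, the groups did not overlap either, with a log2 fold change of -1.61 ± 0.56 (edgeR adjusted p = 0.128), and at day 4 it was -0.62 (adjusted p = 0.874). From day 4 to day 14 the gene rose on plastic by 1.55 on the log2 scale (edgeR adjusted p = 0.0277), while the PDMS value was -0.49 (adjusted p = 0.503).

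The second pair is higher on PDMS, with small and even differences. ENSRNOG00000011382 stood at 68.2, 76.7, 72.6 and 71.3 CPM in PDMS replicates 1 to 4, and at 50.7, 54.4, 52.8 and 60.3 CPM in plastic replicates 1 to 4. Plastic replicate 4 was the plastic library nearest to PDMS. The log2 fold change was 0.40 ± 0.07 (SE, 95% interval 0.26 to 0.55), or 1.32-fold, and did not pass (edgeR adjusted p = 0.0594). It was 0.06 at day 7 and -0.09 at day 4 (edgeR adjusted p = 0.748 and 0.857). From day 4 to day 14 the gene rose on PDMS by 0.25 (edgeR adjusted p = 0.0138) and fell by 0.24 on plastic (adjusted p = 0.0130), on the log2 scale. The test of the change in substrate difference gave 0.49 for day 14 minus day 4 and did not pass (edgeR adjusted p = 0.633).

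ENSRNOG00000000988 stood at 60.1, 71.3, 73.3 and 66.0 CPM in PDMS replicates 1 to 4, and at 48.7, 51, 45.9 and 54.1 CPM in plastic replicates 1 to 4. PDMS replicate 1 and Plastic replicate 4 came nearest to each other. The log2 fold change was 0.44 ± 0.09 (SE, 95% interval 0.26 to 0.62), or 1.36-fold, and did not pass (edgeR adjusted p = 0.115). It was 0.08 at day 7 and 0.09 at day 4 (edgeR adjusted p = 0.711 and 0.910). From day 4 to day 14 it rose by 0.26 on PDMS (edgeR adjusted p = 0.0305), and on plastic the log2 fold change was -0.09 (adjusted p = 0.452).

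**Figure D4:**
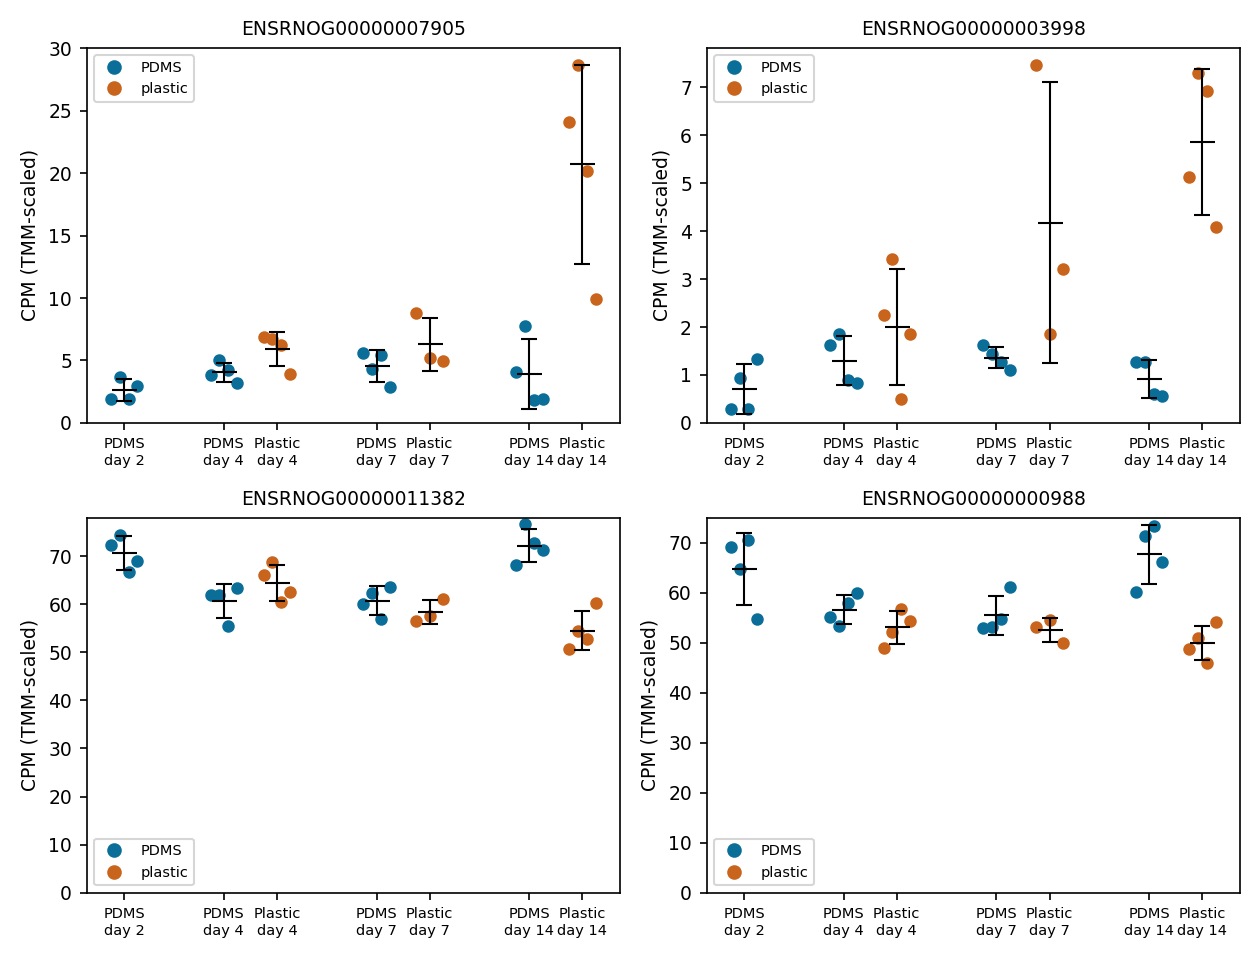
Level of the 4 named IDs in CPM in each of the 27 libraries, by day, with PDMS (blue) left of plastic (orange) where both exist, points for libraries, and bars for the group mean ± SD (n = 4, and n = 3 for Plastic day 7). At day 14 the PDMS and plastic libraries do not overlap in any of the 4, and the fold is wide in the upper pair and narrow in the lower pair.

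Without PDMS replicate 3 and Plastic replicate 4 together, the log2 fold changes of the 4 IDs were -2.40, -2.64, 0.45 and 0.44 in the order above, with edgeR adjusted p values of 0.0503, 0.119, 0.0514 and 0.0979. Without Plastic replicate 4 alone all 4 passed, with edgeR adjusted p values of 0.00897, 0.0284, 0.00897 and 0.0260. All 4 also passed with DESeq2. With library size in place of TMM, ENSRNOG00000007905, ENSRNOG00000011382 and ENSRNOG00000000988 passed (edgeR adjusted p = 0.0363, 0.0363 and 0.0274) and ENSRNOG00000003998 did not (adjusted p = 0.0646). ENSRNOG00000007905 passed as well with limma-voom and without PDMS replicate 2.

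The genes picked at day 14 were then read at days 7 and 4, which share no library with day 14. They do share the fit, its scaling and its estimate of each gene's spread. A p under 0.05 at day 14 and one at another day are therefore not independent. Of the 639 genes higher on PDMS at day 14, 490 (76.7%) were also higher at day 7, against 51.2% of all tested genes. Of the 627 lower genes, 517 (82.5%) were also lower at day 7, against 48.8% of all tested genes. Their median log2 fold changes at day 7 were 0.13 and -0.45, beside 0.01 for all genes. At an unadjusted p under 0.05 the comparison held 2532 genes at day 7 (17.8%) and 1246 at day 4 (8.74%). An unadjusted p under 0.05 in the same direction at day 7 was reached by 136 of the higher genes (background 6.97%) and 234 of the lower genes (background 10.8%). Of the 121 genes called at day 7 in either direction (0.849% of those tested), 4 were among the higher and 28 among the lower genes of day 14. In the fit without PDMS replicate 3 and Plastic replicate 4, 117 of 759 higher and 198 of 657 lower genes reached that p in the same direction at day 7. Of all 14207 genes of that fit, 1200 did so as higher and 1585 as lower. Called there in either direction were 5 of the 759 and 20 of the 657, beside 129 of the 14207.

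At day 4 the shares lay nearer to those of all genes. Of the 639 genes 339 (53.1%) were higher at day 4, against 50.2% of all genes, and of the 627 genes 391 (62.4%) were lower, against 49.8%. Their medians at day 4 were 0.01 and -0.12. Here 17 of the higher genes (background 2.36%) and 86 of the lower genes (background 6.38%) reached an unadjusted p under 0.05 in the same direction.

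Without PDMS replicate 3 and Plastic replicate 4, the shares at day 7 were 67.2% of 759 higher genes and 74.0% of 657 lower genes, with medians of 0.10 and -0.27. With library size they were 88.5% of 1569 and 80.3% of 391, where 63.2% of all genes were higher and 36.8% lower. At day 4, without those libraries, 47.4% of the higher genes were higher and 55.6% of the lower genes lower. These shares count genes, which move together within a library, and carry no test. The test of the difference between days called 0 genes for day 14 minus day 7 (0%, edgeR, 980 at an unadjusted p under 0.05, 6.87%) and 0 for day 14 minus day 4 (0%, edgeR, 971, 6.81%).

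**Figure D5:**
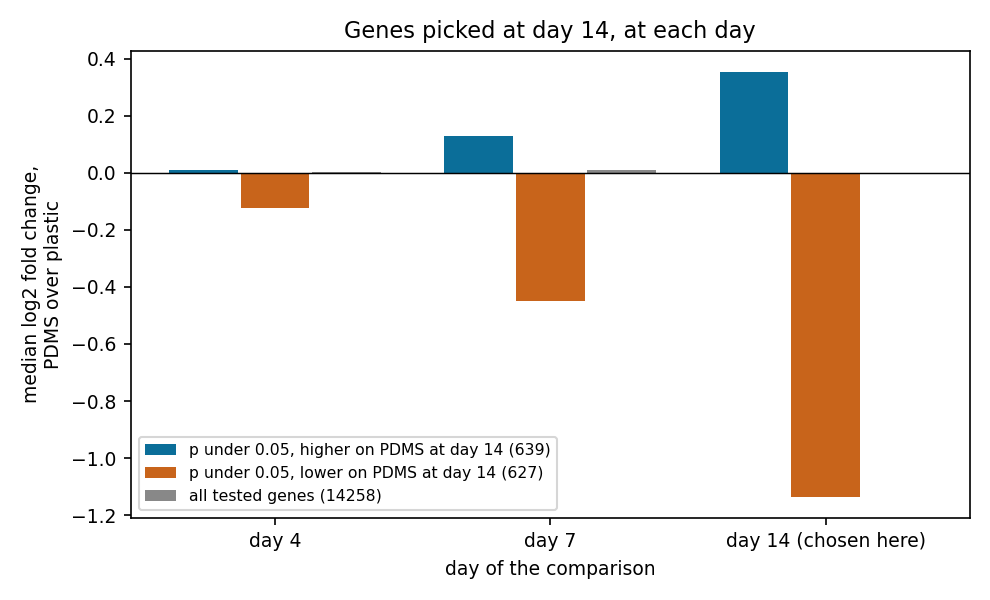
Median log2 fold change of PDMS over plastic at days 4, 7 and 14 for the 639 genes higher (blue) and the 627 genes lower (orange) on PDMS at day 14 by an unadjusted p under 0.05, and for all 14258 tested genes (grey). The day 14 bars are fixed by the choice of genes. The bars of days 4 and 7 come from other libraries, which entered the choice only through the shared scaling and spread of the fit. There the medians are 0.01 and 0.13 for the higher and -0.12 and -0.45 for the lower genes.

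By the spread of reads over genes, every PDMS library of day 14 lay apart from every plastic library of day 14. The effective number of genes, which is the number of equally abundant genes with the same Shannon entropy as the library, was 3458, 3266, 3333 and 3289 in PDMS replicates 1 to 4 and 3014, 2895, 3001 and 2838 in plastic replicates 1 to 4. PDMS exceeded plastic by 400 (two-sided exact permutation p = 0.0286, the smallest that 4 against 4 allows, and 0.0286 after adjustment over 2 measures). The second measure, the share of reads in the 10 genes with the most reads, was 8.17% ± 0.40 for PDMS libraries and 9.29% ± 0.30 for plastic libraries, a difference of -1.12 percentage points (two-sided exact permutation p = 0.0286, n = 4 each, and 0.0286 after that adjustment). The 100 genes with the most reads, on which no test was run, took 23.9% ± 0.70 of the reads in PDMS libraries and 26.9% ± 0.66 in plastic libraries (SD, n = 4 each). PDMS replicate 3 and Plastic replicate 4, alike in the profile of log2 CPM, lay with their own groups here, at 3333 and 2838. Without PDMS replicate 3 the difference was 401, and without Plastic replicate 4 it was 367. The separation was not particular to day 14. At day 7 the effective number was 3473 to 3902 on PDMS and 2617 to 3400 on plastic. At day 4 the groups overlapped, at 3765 to 4062 on PDMS and 3306 to 3959 on plastic. These other days were not tested.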

How the data were processed

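The deposited table holds whole-number read counts by Ensembl rat gene ID, neither scaled nor transformed. Of its 28 columns, 27 belong to listed samples and 1 belongs to none and was not used. The submitters' processing notes name FastQC 0.11.2, STAR, Cufflinks 2.2.1 and DESeq2. Per the series' design text, Cufflinks quantified expression, but the tool behind these counts, its strand setting, the annotation and the genome build were not given in the sources used here. Reads of overlapping genes or near-identical copies may be shared or split. The depth-scaled and variance-stabilized tables were not used. Rows naming no gene numbered 0.

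The analysis used edgeR 4.0.16 under R 4.3.3. filterByExpr (count of 10 in about 3 libraries, total of 15) kept 14258 genes, with 99.9% or more of the reads of every library. After TMM scaling, edgeR's quasi-likelihood fit took all 27 libraries in 7 groups, without covariates (20 residual degrees of freedom). p-values were Benjamini-Hochberg adjusted over all tested genes and called under 0.05. SE is the size of the log2 fold change divided by √F. Log2 CPM carries a prior count of 2, and CPM uses TMM-scaled library sizes. Exact permutation tests counted the splits with an absolute difference in means at least as large. DESeq2 1.42.0, limma-voom (limma 3.58.1), other scalings, filters, blocks and left-out libraries were alternatives. The fit was tested on simulated data with set changes on PDMS at day 14. It called 40.8% of 98 genes changed 2-fold and 76.8% of 99 genes changed 4-fold, with 5 false calls among 121. A 2-fold change can thus go uncalled in this design. The simulated libraries were drawn independently of each other. They lacked the likeness of PDMS replicate 3 to Plastic replicate 4 and of Plastic replicates 2 and 3, so these rates need not hold for the real libraries.

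The 8 libraries, the contrasts and the gene lists were chosen with earlier results of these data known. The rule for named genes asked for a symbol. As no ID had one, it gave at most 2 IDs per direction, by smallest edgeR p among genes with groups that did not overlap and 5 CPM or more on average in the group where the gene is higher. The 36 gene lists are written as symbols and were not looked up. Over all tested genes the median SE of the day 14 fold change was 0.24 on the log2 scale.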

Additional observations from a re-analysis of the deposited data

Results flagged for a closer look

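The total of PDMS day 14 replicate 3 was 20.6 M counts (mega), while the other libraries of its group held 24.2 to 24.7 M, a gap that takes up most of the group's range. It was the only such sample in 22 groups examined over the per-library measures and the named IDs, where chance gives about 1.1.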

How the results depend on the processing

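The count of 0 genes called between PDMS and plastic at day 14 was 8 with library size in place of TMM, 113 with DESeq2, 2 with limma-voom and 2 with the replicate number as a block in the fit of all 27 libraries. With 1 day 14 library left out it ranged from 0 to 88. It stayed 0 with RLE size factors, without a filter on low counts, in the 8 libraries alone, in these with the replicate block, with Plastic replicates 2 and 3 summed, and without PDMS replicate 3 and Plastic replicate 4 together (an alternative chosen after seeing the data). The count at an unadjusted p under 0.05 was 1960 with library size and ranged from 851 to 2279 with 1 library left out. It was 998 with the replicate block in the 8 libraries alone, of which 39.1% were higher on PDMS, and 1377 with the block in all 27, against 1266 without it. With the block in all 27, ENSRNOG00000007905 and ENSRNOG00000011382 passed (edgeR adjusted p = 0.00288 and 0.0275), and with the block in the 8 libraries alone they did not (0.343 and 0.546), nor did they in the 8 libraries without a block. In the 8 libraries alone without a block 43.4% of 1260 were higher. The cause of these changes was not tested. DESeq2 gave no adjusted p for 7 genes. The direction of the 4 named IDs held in 72 of 72 single-gene alternatives. These IDs were chosen on the same counts for groups that did not overlap, so a kept direction was largely given by the choice and is no support. Their adjusted p ranged from 8.2e-06 to 0.353 for ENSRNOG00000007905, from 0.00124 to 0.450 for ENSRNOG00000003998, from 8.2e-06 to 0.546 for ENSRNOG00000011382 and from 0.00233 to 0.554 for ENSRNOG00000000988 (edgeR, DESeq2 or limma-voom). The difference in the effective number of genes ranged from 359 to 425 with 1 library left out and was 403 with Plastic replicates 2 and 3 as their mean. The top 10 share differed by -1.26 to -0.98 percentage points with 1 library left out. The alternative without mitochondrial genes was not run, since the IDs carry no names. Replicate numbers did not pair the libraries throughout. Deviations of same-numbered PDMS and plastic libraries correlated with r = 0.35, 0.20, -0.49 and -0.30. Among the plastic libraries of day 14, PDMS replicates 1 and 2 correlated best with the same number. For PDMS replicate 2 the margin was small (r = 0.20 against 0.19 with Plastic replicate 3). PDMS replicates 3 and 4 correlated best with plastic libraries of another number. At totals of 18.2 to 24.7 M counts the median SE of a log2 fold change was 0.78 in genes under 1 CPM, 0.38 from 1 to 10 CPM, 0.17 from 10 to 100 CPM and 0.18 at 100 CPM or more. The shares of read sampling and of scatter between libraries in it were not tested.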
